A study of Mus musculus with 2 samples.

Results

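Zic and Iroquois (Irx) genes encode transcription factors that pattern the early neural tube, and 9 of them were followed here in embryonic mouse midbrain: Zic1, Zic2, Zic4, Zic5, Irx1, Irx2, Irx3, Irx5 and Irx6. They were chosen by symbol, by matching the gene identifiers of the tables, version removed, to the mouse GENCODE annotation, and they are 9 of 43346 genes in the tables (4 Zic and 5 Irx genes). Other genes of both families are not analysed here. The study holds 1 group of 2 total RNA-seq libraries from B6NCrl embryos at embryonic day 11.5, with no treatment, mutation or second condition. Replicate 1 came from the midbrains of 109 embryos and replicate 2 from those of 88 embryos, males and females pooled in both, so neither sex nor the single embryo can be followed. The input was 10 ng of RNA above 200 nt per library, to which synthetic spike-in RNAs were added.

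Zic proteins carry zinc fingers related to those of the GLI factors. In the neural tube they are known for dorsal expression, for roles in neural tube closure, neural crest and cerebellar growth, and for holding cells in a progenitor state. Iroquois proteins carry a homeodomain of the TALE class, whose other members include the MEIS, PBX and TGIF factors, and they are known for dividing the neural plate into territories and the ventral tube into progenitor domains. Both families lie in gene clusters. Zic genes sit in head-to-head pairs, and Irx genes sit in clusters spread over long stretches with few other coding genes.

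Expected counts summed to 41760197 for replicate 1 and 49256468 for replicate 2, with 38884247 and 45975100 on genes. An expected count is an estimate of the reads from a gene, so fractions occur. Levels are given in TPM, a relative abundance that corrects for length, and each deposited TPM comes with an interval for the uncertainty of the estimate within 1 library. The TPM of every member lay inside its interval, whereas that of 654 detected genes in replicate 1 did not. The libraries differed by more than counting noise (chi-square per degree of freedom 10.3 over 17148 genes) and were treated as 2 samples, with a common biological coefficient of variation of 7.82%. All 8 midbrain markers were at 1 TPM or more in both libraries, with summed levels of 342.9 to 350.1 TPM. Otx2 gave 169.43 and 171.27 TPM of that. Such sums cannot verify the midbrain label, because markers of the anterior brain, diencephalon included, summed to 360.7 to 371.1 TPM. Whole tissue was sequenced, so fewer cells of a type and less RNA per cell cannot be told apart.

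The 9 genes lie in 4 clusters on mm10. Zic1 (chr9:91358058-91365810, minus strand) and Zic4 (chr9:91362413-91389348, plus strand) overlap on opposite strands, by 3.397 kb in the annotation. Zic5 (chr14:122456795-122465677, minus) and Zic2 (chr14:122475435-122479852, plus) are head to head with 9.758 kb between their starts. Irx1 (chr13:71957921-71963723, minus) and Irx2 (chr13:72628820-72634198, plus) also point away from each other, but over 665.097 kb. Irx3 (chr8:91798525-91802067, minus), Irx5 (chr8:92357625-92376286, plus) and Irx6 (chr8:92674288-92680956, plus) form the remaining cluster, with 555.558 kb between Irx3 and Irx5 and 298.002 kb between Irx5 and Irx6.

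Promoters are shown for 3 genes because Zic1 and Zic4 are close neighbours with different levels and Irx2 is the higher gene of its cluster. They come from RefSeq on GRCm38.p6, which has an entry for 5 of the 9 genes (Zic1, Zic4, Zic5, Irx2 and Irx3). The bases before the RefSeq start are printed 5′ to 3′ on the gene's own strand, stopping before the first annotated coding transcript that starts inside them, and capitals mark CG dinucleotides. Zic1 is chr9:91365811-91366018 (minus), Zic4 is chr9:91368722-91368811 (plus) and Irx2 is chr13:72628570-72628819 (plus).
Zic1: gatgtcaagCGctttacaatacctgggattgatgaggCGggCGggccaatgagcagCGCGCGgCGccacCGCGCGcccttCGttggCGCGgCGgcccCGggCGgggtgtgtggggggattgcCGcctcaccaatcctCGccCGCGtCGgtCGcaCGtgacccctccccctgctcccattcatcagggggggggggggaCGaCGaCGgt
Zic4: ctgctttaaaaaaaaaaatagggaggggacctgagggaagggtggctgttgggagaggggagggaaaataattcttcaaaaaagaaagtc
Irx2: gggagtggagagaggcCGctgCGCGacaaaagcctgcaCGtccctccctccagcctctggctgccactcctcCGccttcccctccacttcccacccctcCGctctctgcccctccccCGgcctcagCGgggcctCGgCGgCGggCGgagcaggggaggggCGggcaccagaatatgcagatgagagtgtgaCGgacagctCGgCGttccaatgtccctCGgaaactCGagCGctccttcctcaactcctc
The Zic1 and Irx2 stretches are dense in CG and that of Zic4 holds none. Over the whole 250 bases before the start, Zic1 had 27 CG dinucleotides, Irx2 19, Irx3 13, Zic5 11 and Zic4 4, beside a median of 6 over 32851 promoters. GC content was 66% for Zic1, 68.4% for Irx2 and 44.4% for Zic4, with a median of 52.4% over all promoters. On both strands the letters GGGCGG, the core of an SP factor site, occurred 2 times in Zic1 and 2 times in Irx2, and 32.7% of all promoters hold them. The letters CCAAT occurred 2 times in Zic1 and 1 time in Irx2 (33.8% of all promoters). TATAAA (12.4% of promoters) and ACANNTGT, a palindrome linked to Iroquois proteins (6.31% of promoters), occurred in none of the 5 windows. No printed match of GGGCGG overlapped one of CCAAT, and a match describes only the letters.

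All 9 genes reached 1 TPM in both libraries, where 32.1% of all genes and 58.2% of protein-coding genes did. On TPM they fell on 4 levels, about 30 TPM for Irx3, Irx5, Zic4 and Irx2, then Zic5 and Zic1, then Irx1 and Zic2, and last Irx6. Within the family the order was Irx3, Irx5, Irx2, Irx1 and Irx6 for Irx, and Zic4, Zic5, Zic1 and Zic2 for Zic.

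**Figure D1:**
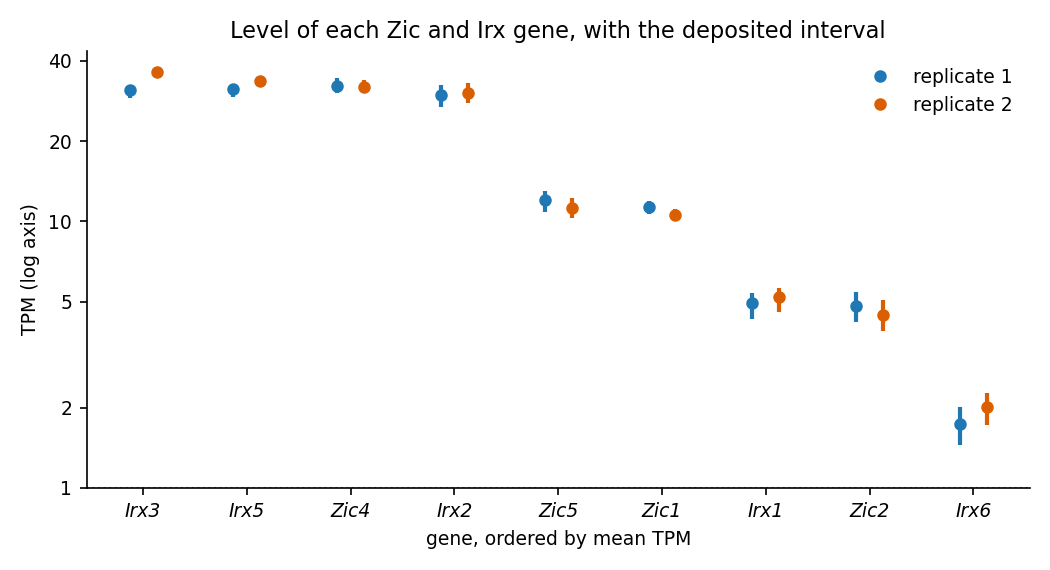
TPM (log axis) of the 9 genes, ordered by mean, with replicate 1 in blue and replicate 2 in orange; points are the deposited TPM and vertical lines the deposited interval of each library. The genes step down from Irx3 (31.07 and 36.48 TPM) to Irx6 (1.73 and 2.01 TPM), and Irx3 alone has intervals that do not overlap between the libraries.

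Among the Zic genes, Zic4 was highest. Its product is best known together with that of Zic1, since loss of both genes is linked to Dandy-Walker malformation of the cerebellum. Zic4 had 32.23 TPM in replicate 1 and 31.90 TPM in replicate 2 (32.1 ± 0.233, SD, n = 2) on 2220.29 and 2603.87 expected counts. Zic1, which acts in cerebellar and dorsal neural tube development, had 11.27 and 10.52 TPM (10.9 ± 0.530) on 1662 and 1856 counts. Zic4 was therefore the higher gene of the chromosome 9 pair in both libraries, with intervals that did not overlap.

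Zic5, linked to neural crest formation and neural tube closure, had 11.99 and 11.21 TPM (11.6 ± 0.552). Zic2, a holoprosencephaly gene that also directs retinal axons at the midline, had 4.82 and 4.47 TPM (4.645 ± 0.247) on 276 and 286 counts. Zic5 lay above Zic2 in both libraries, and all 4 Zic genes had intervals that overlapped between the libraries.

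On TPM + 0.1, Zic4 stood 2.93-fold (± 0.120, SD, n = 2) above Zic1 and 2.75-fold (± 0.110) above Zic5. Zic5 stood 2.47-fold (± 0.0124) above Zic2, and Zic1 stood 2.32-fold (± 0.0091) above Zic2. Zic5 and Zic1, which lie on different chromosomes, differed by 1.06-fold and their intervals overlapped in both libraries.

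Irx3 and Irx5 share a cluster and are known for joint roles in neural, limb and heart development. Irx3 had 31.07 TPM in replicate 1 and 36.48 TPM in replicate 2 (33.8 ± 3.83) on 2077.7 and 2918.68 counts. Irx5 had 31.34 and 33.72 TPM (32.5 ± 1.68) on 1933 and 2488 counts. Irx5 was the higher gene by a small margin in replicate 1 and Irx3 in replicate 2, where their intervals did not overlap. Irx6, the last gene of that cluster and known in retinal bipolar cells, had 1.73 and 2.01 TPM (1.87 ± 0.198) on 149 and 206 counts. It was the lowest of the 9 in both libraries, between the 6.77th and 8.82nd percentile of detected genes.

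Irx2, linked to cerebellar patterning at the midbrain-hindbrain border, had 29.91 and 30.33 TPM (30.1 ± 0.297) on 1334 and 1840 counts. Irx1, its cluster partner, had 4.93 and 5.18 TPM (5.055 ± 0.177) on 300 and 377 counts. Irx2 was thus high and Irx1 low in both libraries. On TPM + 0.1 the fold of Irx2 over Irx1 was 5.86 (± 0.144), that of Irx3 over Irx1 was 6.56 (± 0.517), and that of Irx5 over Irx6 was 16.6 (± 0.815). With 1 TPM added, Irx5 over Irx6 was 11.7, so that size depends on the addition.

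Within the families, 12 of 16 pairs (5 of 6 Zic pairs and 7 of 10 Irx pairs) had intervals apart in both libraries with the same gene on top. Of all 96528565 pairs of detected genes, 88.8% did so, and the members' share is not above that. The 4 pairs that were not separated in both were Zic5 with Zic1, Irx3 with Irx5 (1.04-fold), Irx3 with Irx2 (1.12-fold) and Irx5 with Irx2 (1.08-fold). Irx3 was separated from both partners in replicate 2 and from neither in replicate 1.

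Taking all 9 genes in order of level, no neighbours in that order among Irx3, Irx5, Zic4 and Irx2 had intervals apart in both libraries. In replicate 1 Zic4 came first. In replicate 2 the interval of Irx3 (34.5 to 37.1 TPM) lay above those of Irx5 (31.8 to 34.4 TPM) and Zic4 (30.3 to 33.9 TPM). The step from Irx2 down to Zic5 was 2.59-fold (± 0.147) and separated in both. The same held for Zic1 over Irx1, 2.14-fold (± 0.176), and for Zic2 over Irx6, 2.43-fold (± 0.370). Zic5 with Zic1 and Irx1 with Zic2 were not separated. On expected counts, not corrected for length, Irx2 over Zic5 was 0.962 in replicate 1 and 1.18 in replicate 2. There Zic1 over Irx1 was 5.54 and 4.92, and Zic2 over Irx6 was 1.85 and 1.39.

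Summed over genes, the Irx level was 98.98 TPM in replicate 1 and 107.72 TPM in replicate 2, and the Zic level was 60.31 and 58.10 TPM. Their ratio was 1.64 and 1.85 (1.75 ± 0.151, n = 2). It was 1.14 on counts, not corrected for length, and 2.52 when only transcripts annotated as protein-coding were summed. The chromosome 8 cluster held 64.8% and 67.0% of the Irx level, nearly all of it from Irx3 and Irx5. By cluster, mean summed levels were 68.2 TPM on chromosome 8, 43.0 TPM on chromosome 9, 35.2 TPM on chromosome 13 and 16.2 TPM on chromosome 14.

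Transcripts differed more between these genes than the gene totals show. Zic4 had the largest noncoding share of the 9. Of its TPM, 55.7% in replicate 1 and 58.0% in replicate 2 (56.9% ± 1.63) lay on transcripts that are not annotated as protein-coding. That majority did not hold on expected counts, not corrected for length. There the coding transcript Zic4-201 alone had 1217.6 of 2220.29 and 1393.96 of 2603.87. Retained intron transcripts took 33.7% and 35.2% of Zic4. Over 12492 detected protein-coding genes the median share of all transcripts not annotated as protein-coding was 0.667% and 0.815%. Of those genes, 5.92% had at least 50% of their TPM on such transcripts in both libraries. The part of unspliced RNA in the Zic4 share was not tested.

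The leading Zic4 transcript was Zic4-201, with 11.99 and 11.48 TPM, 37.2% and 36.0% of the gene. Zic4-211, a retained intron transcript, and Zic4-202, a processed transcript, followed with 7.01 and 6.58 TPM and with 5.88 and 5.75 TPM. Zic1-201 held all of the Zic1 level, 11.27 and 10.52 TPM. The intervals of Zic4-201 (10.6 to 12.7 TPM and 10.3 to 12.2 TPM) overlapped those of Zic1-201 (10.5 to 11.5 TPM and 9.82 to 10.8 TPM) in both libraries. Counting only protein-coding transcripts, an alternative chosen after seeing the data, Zic4 was 1.27-fold above Zic1 and 1.30-fold above Zic5, so most of the fold between the gene totals came from the other transcripts.

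Zic4-201 starts 9670 bp from the RefSeq start whose upstream bases are printed above. The 5 transcripts that start within 1 kb of that RefSeq start held 33.8% and 34.5% of Zic4, and the 2 coding ones among them held 4.02% and 3.70%. For Zic1 and Irx2 the RefSeq start is also that of the leading transcript, and for Zic5 it is 19 bp away. The leading Irx3 transcript, Irx3-202, starts 413 bp away.

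Of the other genes, Irx2 and Zic2 also divided their level between transcripts. Irx2-201 held 55.6% of Irx2 in replicate 1 and 66.9% in replicate 2. Irx2-205, a short coding transcript, held 27.7% and 16.7%, and Irx2-202, a retained intron transcript, 15.5% and 14.6%. Irx2-201 itself had 16.64 and 20.29 TPM, higher in replicate 2. The Irx2 total had a log2 ratio of 0.02 on TPM and of 0.22 on scaled counts, and its effective length, which TPM divides by, was 1666 in replicate 1 and 1894 in replicate 2. Zic2-201 held 87.9% and 79.6% of Zic2, and the retained intron transcript Zic2-202 the remainder. Zic5-201 held 91.4% and 92.1%, Irx6-201 90.1% and 88.4%, and Irx3-202 99.1% and 98.6%. Irx1 and Irx5 had 1 transcript each in the tables.

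**Figure D2:**
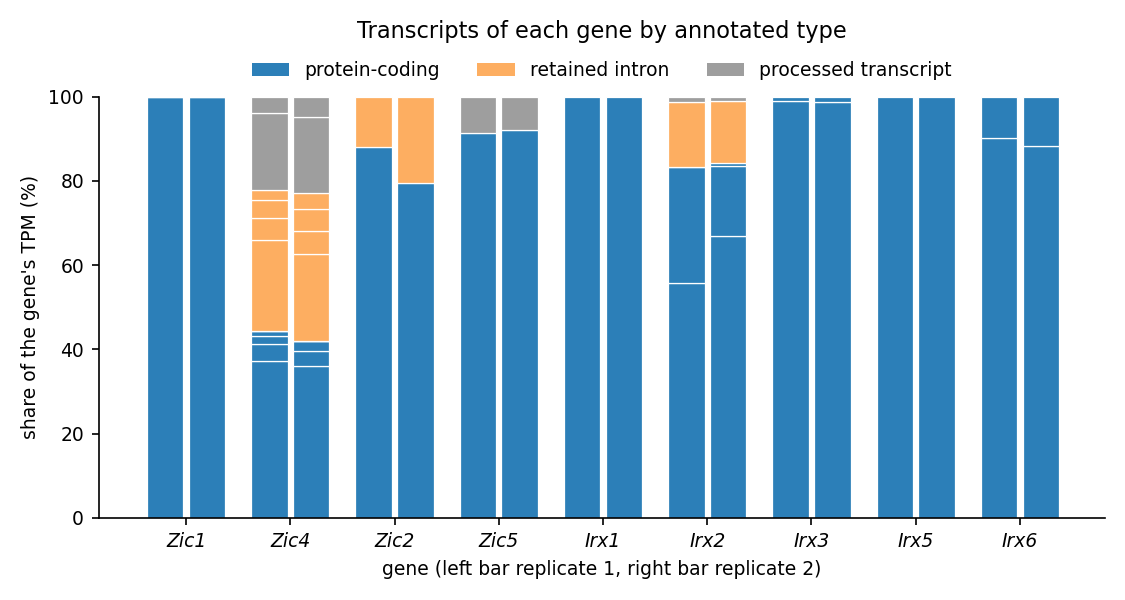
Share of each gene's TPM (%) by transcript, with the left bar for replicate 1 and the right bar for replicate 2; segments are single transcripts, blue for protein-coding, orange for retained intron and grey for processed transcripts. Zic4 has less blue than any other of the 9 genes, and Irx2-201, the lowest segment of Irx2, grows from 55.6% to 66.9%.

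Genes beside the members were measured within 100 kb, where 17 other genes had at least 20 summed counts and 8 of these reached 1 TPM in both libraries. Crnde, a long noncoding RNA gene that starts 1.505 kb from Irx5 on the other strand, had 54.48 and 54.12 TPM (54.3 ± 0.255). On TPM it stood 1.67-fold above Irx5, and its intervals lay above those of Irx5 in both libraries. On expected counts, not corrected for length, the order was reversed, with 958 and 1140 for Crnde and 1933 and 2488 for Irx5. 2610035F20Rik, a noncoding gene 0.236 kb from Zic2 on the other strand, had 4.49 and 5.12 TPM, 1.04-fold the level of Zic2. Gm20554, 0.256 kb from Irx2 on the other strand, had 0.50 and 0.59 TPM, far under Irx2. On TPM, the close opposite-strand neighbours of Irx5, Zic2 and Irx2 were thus above, level with and below their partner.

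Irx3os overlaps Irx3 on the other strand and had 3.45 and 2.72 TPM. Irx3 and Irx3os counts were fractional and summed to 2241 and 3085 whole reads, and those of Zic4 and Gm37477, which lies inside Zic4, summed to 2341 and 2744. These 2 members were the only ones with fractional counts. In both pairs the partners lie on opposite strands, and the counts of Zic1 were whole (1662 and 1856). The sources used here do not state whether strand was used in the counting. Reads therefore cannot be assigned with certainty to Irx3 or Irx3os, or to Zic4, Zic1 or Gm37477, where they overlap.

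Flanking coding genes had levels of their own. Fto, an RNA demethylase gene 130.086 kb from Irx3 that carries enhancers of Irx3, had 80.11 and 84.27 TPM, above Irx3. Mmp2, a matrix metalloproteinase gene beyond Irx6, had 38.66 and 33.06 TPM, above Irx6. Adamts16, the nearest coding gene before Irx1, had 0.22 and 0.34 TPM, below Irx1.

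**Figure D3:**
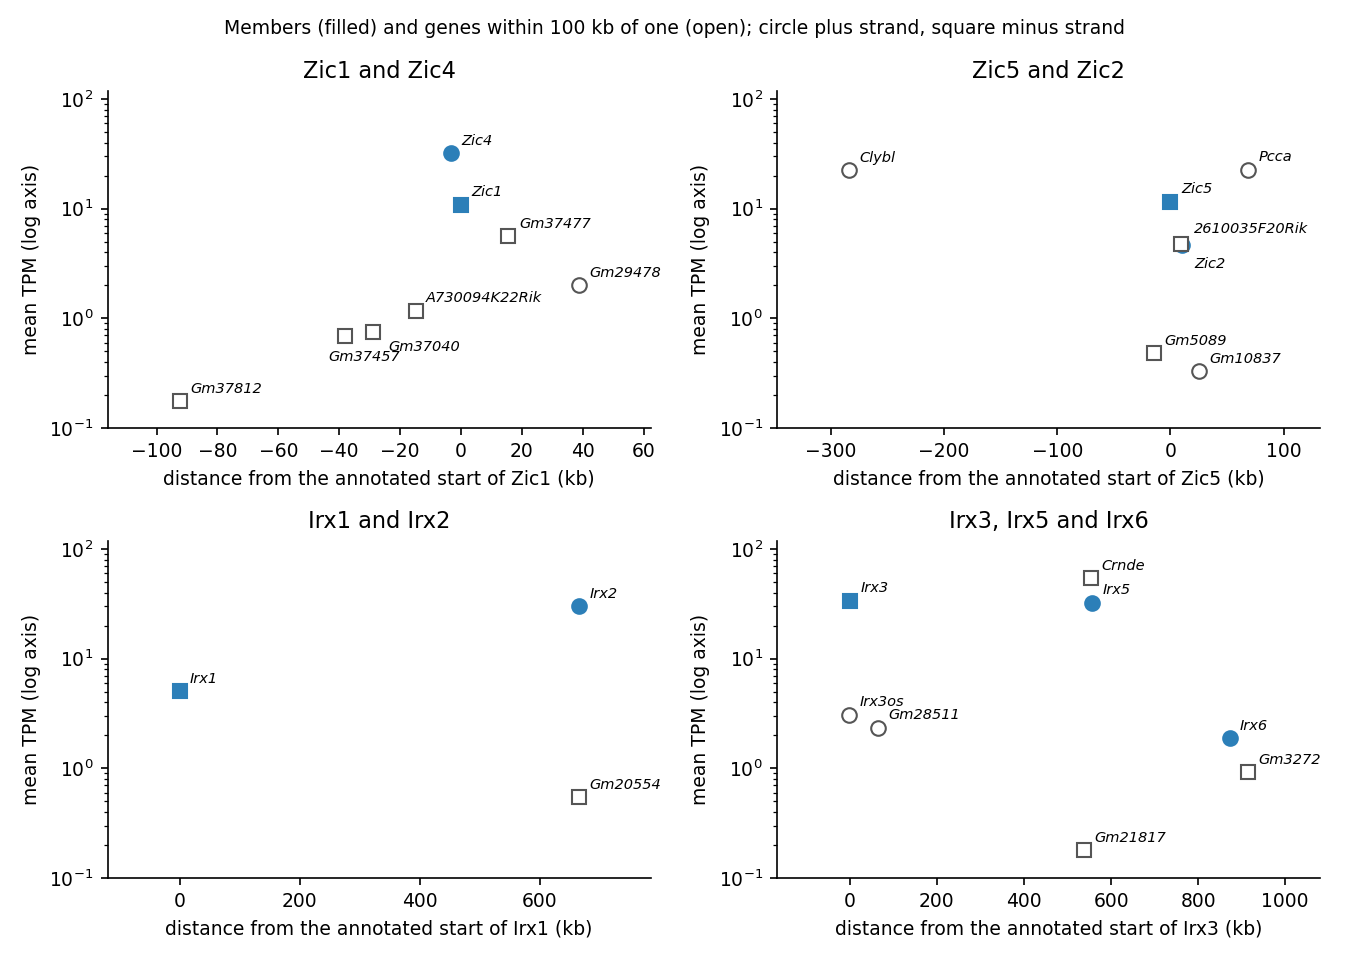
Mean TPM (log axis) of members (filled) and of other genes within 100 kb of one (open), against the distance in kb of their annotated start from that of the first member of each cluster; circles are plus strand and squares minus strand. Crnde (54.3 TPM) lies next to and above Irx5, and 2610035F20Rik lies almost on Zic2.

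Between the libraries, none of the 9 genes was called at 2-fold. The test was a two-sided exact binomial test of replicate 2 against replicate 1 on rounded counts, with library sizes scaled by TMM and Benjamini-Hochberg adjustment over all 17148 genes with at least 20 counts. It compares 2 libraries and not 2 conditions. It called 0 of 9 members, where 2.94% of all genes were called, and edgeR's exact test with an assumed coefficient of variation of 0.1 also called 0. With no 2-fold minimum 3 of 9 members passed, where 35.5% of all genes did, and the same 3 had an unadjusted p under 0.05.

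Those 3 were Irx3, Irx2 and Irx5, each higher in replicate 2. Irx3 had a log2 ratio of 0.24 (adjusted p = 7.36e-08, exact binomial test), Irx2 0.22 (adjusted p = 0.000211) and Irx5 0.12 (adjusted p = 0.0267). Irx6, with a ratio of 0.22, and Irx1, with 0.08, did not pass. The binomial test covers counting error only, and the libraries differed by more than that (chi-square per degree of freedom 10.3). Irx3 was also the 1 member of 9 whose deposited intervals did not overlap between the libraries, and 22.4% of detected genes had such intervals.

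All 5 Irx genes had log2 ratios above 0 (0.08 to 0.24, median 0.22) and all 4 Zic genes had ratios below 0 (-0.20 to -0.02, median -0.08), beside a median of 0.01 over all genes tested. No Zic gene passed. With spike-in scaling Zic4 was above 0 and the other 3 Zic genes below, and with DESeq2 size factors, total counts and deposited TPM the signs were as with TMM.

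**Figure D4:**
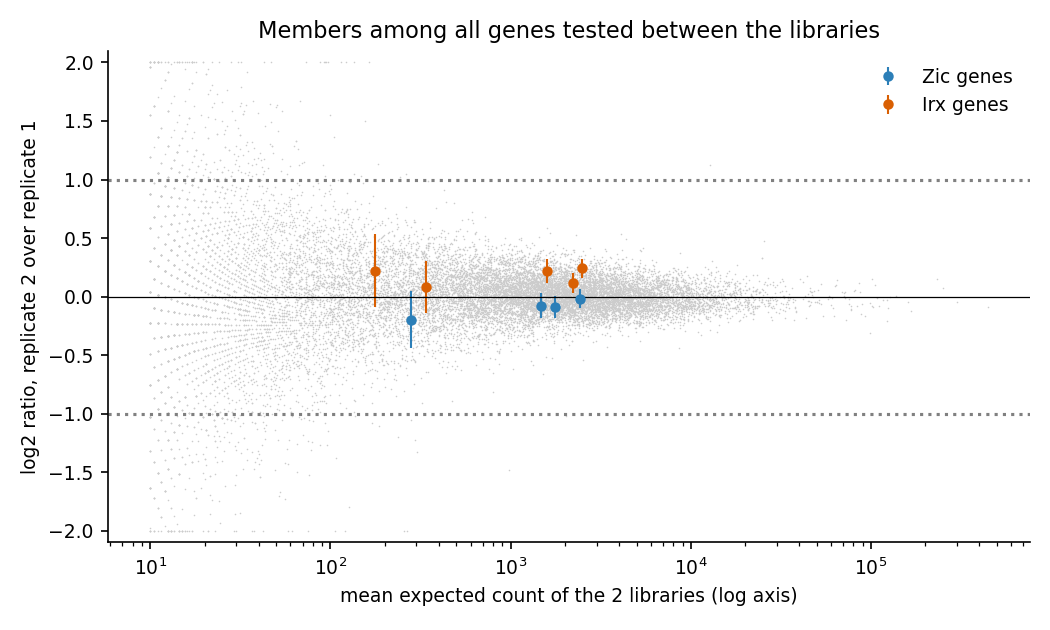
Log2 ratio of replicate 2 over replicate 1 against the mean expected count of the libraries (log axis) for all genes tested (grey; ratios beyond 2 are drawn at the edge), with the 4 Zic genes in blue and the 5 Irx genes in orange; bars are exact 95% binomial intervals, which cover counting error only, and dotted lines mark 2-fold. The Irx genes lie above 0 and the Zic genes below 0 under this TMM scaling (with spike-in scaling Zic4 is above 0), and all 9 lie inside the 2-fold lines.

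Median log2 ratios of other gene lists between the libraries are given beside these, over the members with at least 20 summed counts, and their part in the Zic and Irx ratios was not tested. Of all these lists only the anterior brain list held called genes, 1 higher and 1 lower in replicate 2. Roof plate and dorsal midline genes, with 14 of 16 at 1 TPM and sums of 212 to 229 TPM, had a median log2 ratio of 0.22. In that list Pax3, Msx2, Olig3, Bmp7 and Pax7 were below 0 (-0.10, -0.10, -0.12, -0.19 and -0.15) and all others above 0. Its highest ratio, 1.23 for Gdf7, rests on 7 and 21 counts. Some genes, such as Pax3, Pax7 and Atoh1, are in another list as well. Anterior hindbrain and rhombic lip markers (4 of 8 at 1 TPM, 26.1 to 29.7 TPM in sum) had 0.30 over 5 of 8 genes, without Hoxa2, Hoxb1 and Egr2, which had too few counts and ratios of -0.73, -0.73 and -0.59. Midbrain markers had -0.04. Neural crest markers (3 of 6, 103.8 to 125.1 TPM) had -0.55 over 5 of 6 genes. That median is the value of Sox10, on 51 and 41 counts. Most of the neural crest sum came from Ednrb (92.22 and 74.65 TPM, ratio -0.29) and Tfap2b (28.02 and 25.97 TPM, ratio -0.13). Head mesenchyme markers (11 of 11, 711.7 to 748.4 TPM) had -0.08. Markers of the anterior brain, diencephalon included (6 of 8, 360.7 to 371.1 TPM), had -0.13, and surface and otic epithelium (5 of 6, 24.1 to 25.0 TPM) had 0.17. No listed marker was at 0 counts in both libraries.

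The nearest relatives by protein class were also measured. Of 6 GLI and GLIS genes 5 reached 1 TPM, with a median level of 4.56 TPM and a median log2 ratio of 0.30, and 0 were called between the libraries. Gli3, which encodes a main transcriptional repressor of the hedgehog pathway, had 27.56 and 31.67 TPM, close to the Zic4 level. All 12 TALE relatives reached 1 TPM, with a median level of 35.7 TPM and a median log2 ratio of 0.03, and 0 were called. Tgif2, a repressor in TGF-beta signalling, had 62.03 and 68.15 TPM, above every Irx gene followed here.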

How the data were processed

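Per the file headers, the authors deposited an expected count, TPM and FPKM for each gene and transcript, with interval bounds (a signal with no fixed total and a level not stated) and, for transcripts, a percent of the gene. TPM was scaled over all rows by the authors, spike-ins included (15.2% and 14.8% of TPM). Per the labels' protocols RNA was extracted with mirVana and a Smart-seq protocol is cited, so reads are amplified cDNA. The deposited intervals cover the uncertainty of the estimate within a library. They cover neither amplification noise nor differences between libraries. The accompanying notes give mm10 and annotation M4. Aligner, quantifier and versions: not given in the sources used here.

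The 9 members, their lists and these tests were chosen with earlier results of these data known. Symbols and coordinates came from GENCODE M21 on the same assembly, and 42462 of 43346 genes matched. Spike-ins (96 rows), 1 phiX row and 26248 rows with numeric identifiers (4.44 and 13.25 counts) stayed out of gene totals. Detected means at least 1 TPM in both libraries. Pair folds are on TPM + 0.1, and 2 genes were called separated where their intervals lay apart in both libraries with the same gene on top.

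Expected counts were rounded for the between-library test, which used scipy 1.17.1 in Python 3.11.15 with TMM from edgeR 4.0.16 in R 4.3.3 and a call at adjusted p under 0.05 and 2-fold. Log2 ratios use a prior count of 1 added after scaling to the mean library. They were first computed with the prior added before scaling, and the formula was changed after the calls had been seen, because the first form is off centre for low counts and because the number of calls differed from that in the earlier results of these data. That difference remained after the change, also without the 2-fold minimum, and its cause was not found. It concerns the counts over all genes. On simulated data for replicate 2 against replicate 1 (17134 genes tested), 100 of 100 genes changed 3-fold, 100 of 100 changed 8-fold and 0 of 16934 unchanged genes were called, with sampling noise only. Alternatives were scaling by spike-ins, by total counts or by DESeq2 1.42.0, other filters, thresholds, units and pseudocounts, and each library left out. Named genes were every member, genes within 100 kb with at least 20 summed counts, flanking coding genes, transcripts at 10% or more, and the highest genes of each list, of which only those beside a member's value are printed.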

Additional observations from a re-analysis of the deposited data

How the results depend on the processing

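At 2 TPM 8 of the 9 genes were detected, without Irx6, and under the other alternatives run 9 were, including each library left out. The count of separated pairs stayed within 1.5 times of 12. Summed Irx over summed Zic was 1.14 on expected counts, not corrected for length, and 2.52 on protein-coding transcripts only, an alternative chosen after seeing the data. On expected counts, Zic5 over Zic2 was 5.24, Zic1 over Zic2 6.26, Zic4 over Zic5 1.64 and Zic4 over Zic1 1.37. Without the 2-fold minimum 3 members and 6090 genes differed between the libraries, against 0 and 505 with it, and edgeR's exact test with an assumed coefficient of variation of 0.1 gave 155 genes. With the prior count added before scaling, as first computed, 505 genes were called as well, 502 of them the same genes, and 0 members. Among results that passed no test, Irx3 over Irx5 was 0.991 without replicate 2, and the log2 ratio of Zic4 was 0.04 with spike-in scaling, which gave 267 genes higher and 239 lower against 237 and 268 with TMM. No paired analysis was possible because there is 1 group. With 2 libraries, an SD rests on 2 values. Zic2, Irx1 and Irx6, on 149 to 377 counts, have the widest intervals of the log2 ratio.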
